A study of Arabidopsis thaliana with 8 samples.

Results

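Of 3439 probes on the arrays, the 5 described here each stand for 1 gene of carbon fixation, glycolate transport or sucrose synthesis. They were chosen by name, as the probes whose platform annotation gives exactly 1 gene, that gene being SBPASE (AT3G55800), PRK (AT1G32060), BSD2, LrgB (AT1G32080) or ATSPS4F (AT4G10120). Each gene has 1 such probe among the 692 that name a single gene, and 0 of the probes that name several genes include any of the 5. The probe taken for BSD2 is annotated only by its locus, AT3G47650; the name BSD2 was given to this locus from general knowledge and not from the annotation. The RNA came from wild-type Arabidopsis thaliana of the ecotype Columbia 0. In 4 arrays it was from plants at normal CO2, labelled 0 d, and in 4 arrays from plants that had spent their last 1 d in air with 1% CO2 by volume. With no array of plants left at normal CO2 for that day, an effect of CO2 and an effect of the added day cannot be told apart.

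In the Calvin cycle of the chloroplast, Rubisco joins CO2 to ribulose bisphosphate, and the sugar phosphates made from the product are rearranged to rebuild that acceptor. SBPASE, sedoheptulose-bisphosphatase, acts in this rebuilding, and PRK, phosphoribulokinase, makes the acceptor itself in the last step. BSD2 is a chaperone that holds the large subunit of Rubisco during assembly. Rubisco also reacts with oxygen, and the glycolate this yields leaves the chloroplast through the LrgB protein, a transporter of the inner envelope that returns glycerate. High CO2 is known to slow the reaction with oxygen. ATSPS4F is a sucrose phosphate synthase, an enzyme of the pathway that turns exported carbon into sucrose in the cytosol.

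After 1 d at high CO2 the BSD2 transcript was about doubled and the SBPASE transcript was lower by about 45.4%, while PRK, LrgB and ATSPS4F did not pass the test. Of the 5 genes 1 thus rose and 1 fell at an adjusted p under 0.05 in limma, fitted over all 3154 tested probes. When pairs of arrays, described below, entered the fit as a random block, SBPASE kept its log2 fold change but no longer passed (limma, adjusted p = 0.0701). The rise of BSD2 still passed. Among all tested probes 14.3% rose and 18.3% fell, 32.6% in all, so calls were common on these arrays. The 2 calls among 5 genes are close to that share and say nothing of the 5 as a group. The median log2 fold change of the 5 was -0.34, against -0.16 over all tested probes. Intensities below are the deposited relative values, on a scale that ends at 100, and log2 fold changes are of quantile-normalized values, with a positive sign for a higher level at high CO2.

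**Figure D1:**
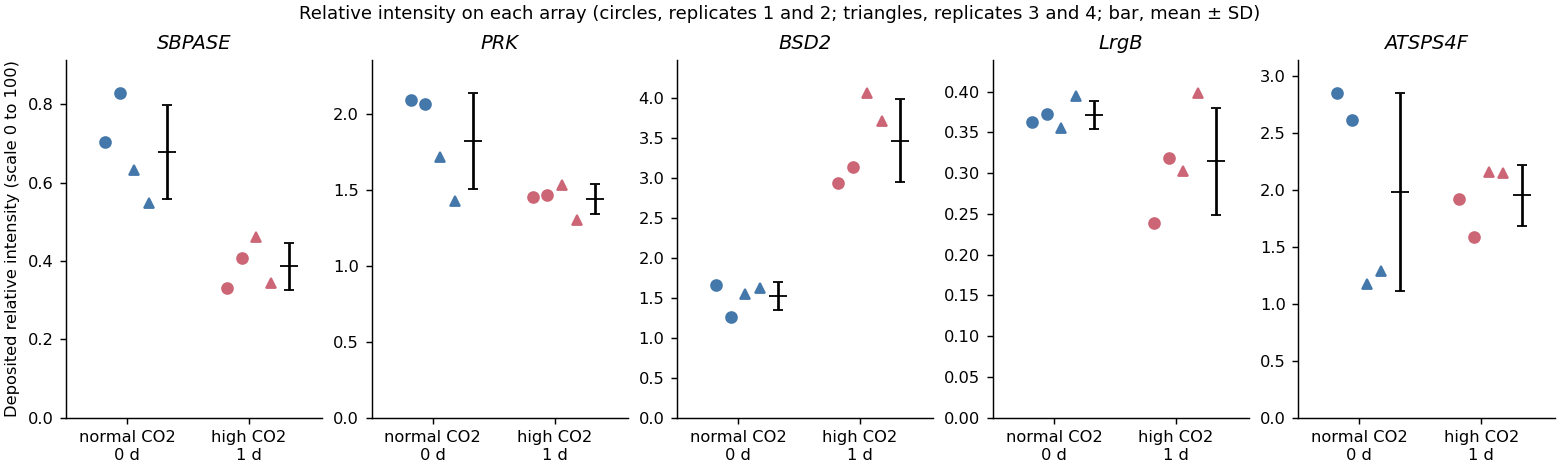
Deposited relative intensity (vertical axes, linear, from 0, scaled separately for each gene) of the 5 genes on each array at normal CO2 (blue, 0 d) and high CO2 (red, 1 d); circles are replicates 1 and 2, triangles replicates 3 and 4, and black bars the mean ± SD of 4 arrays. The groups are apart for SBPASE and BSD2 and overlap for PRK, LrgB and ATSPS4F, and the normal arrays of ATSPS4F form a high pair and a low pair.

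SBPASE had relative intensities of 0.705, 0.830, 0.633 and 0.547 on normal CO2 replicates 1 to 4. On high CO2 replicates 1 to 4 it had 0.331, 0.408, 0.461 and 0.344. All 4 high CO2 arrays lay below all 4 normal arrays. The same held for its place among the probes of an array, which does not depend on the scale: it ranked at percentiles 75.5 to 81.8 on the normal arrays and 56.5 to 69.4 on the high CO2 arrays. After quantile normalization the groups of SBPASE did not overlap either. On those normalized values, groups of 4 that did not overlap, with the high CO2 arrays lower, were found for 21.9% of the 2932 probes measured on all arrays. In either direction they were found for 38.7%. The mean changed from 0.679 ± 0.12 to 0.386 ± 0.0602 (SD, n = 4 each). In the fit it changed by -0.87 ± 0.18 on the log2 scale (SE; limma, adjusted p = 0.00901), a level of 0.546 times the control with a 95% interval of 0.41 to 0.728.

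SBPASE was lower at high CO2 in both sets of arrays. Across all probes, the arrays within the pairs 1 and 2 or 3 and 4 of a group correlated at 0.887 to 0.962. Arrays of different pairs in a group correlated at 0.852 to 0.899, so the ranges overlap in part. The labels name no reason for such pairs. The log2 fold change of SBPASE was -0.85 in replicates 1 and 2 and -0.90 in replicates 3 and 4. The difference between these of -0.05 ± 0.30 (SE; limma, adjusted p = 0.927) was smaller than its error. As deposited, its mean changed by -51.9% in replicates 1 and 2 and by -31.8% in replicates 3 and 4. The call was lost when the pairs were taken into account as repeats. With each pair as a random block the adjusted p was 0.0701 at the same log2 fold change, and with the pairs averaged it was 0.185. With the sets instead as a fixed block common to both groups, SBPASE passed (limma, adjusted p = 0.00626). The labels do not say which treatment of the sets applies.

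PRK, the other Calvin cycle gene, was at 2.09, 2.07, 1.71 and 1.43 on normal CO2 replicates 1 to 4. It was at 1.46, 1.46, 1.53 and 1.30 on high CO2 replicates 1 to 4. Normal replicates 1 to 3 stood above every high CO2 array, and normal replicate 4 lay among them, so the groups overlapped as deposited. After quantile normalization they no longer did, and by place among the probes PRK ranked at percentiles 90.9 to 93.3 on the normal arrays and 87.8 to 90.5 on the high CO2 arrays. The mean was 1.82 ± 0.316 at normal and 1.44 ± 0.0972 at high CO2 (SD, n = 4 each).

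In the fit PRK changed by -0.47 ± 0.16 on the log2 scale (SE; limma, adjusted p = 0.0548), just short of the threshold. Its 95% interval ran from 0.557 to 0.931 times the control. Whether PRK and SBPASE differed in their change was not tested. PRK passed under 5 of 20 alternatives, among them the fit without normal replicate 4 (log2 fold change -0.58, adjusted p = 0.0373). Taking the values as deposited gave -0.33 (adjusted p = 0.181), and removing a trend along the probe numbers gave -0.23 (adjusted p = 0.319).

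BSD2 was at 1.66, 1.26, 1.55 and 1.62 on normal CO2 replicates 1 to 4. On high CO2 replicates 1 to 4 it was at 2.93, 3.14, 4.07 and 3.72. The lowest high CO2 array stood well above the highest normal array, and replicates 3 and 4 were the highest of all. Its rank moved from percentiles 88.4 to 92.0 on the normal arrays to 95.1 to 96.7 on the high CO2 arrays. The groups of BSD2 were also apart after quantile normalization. On those normalized values such a separation upward was found for 16.7% of the 2932 probes measured on all arrays.

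The mean of BSD2 changed from 1.52 ± 0.18 to 3.46 ± 0.522 (SD, n = 4 each). The fitted change was 1.04 ± 0.18 on the log2 scale (SE; limma, adjusted p = 0.00413), or 2.06 times the control with a 95% interval of 1.55 to 2.73. It was 1.00 in replicates 1 and 2 and 1.08 in replicates 3 and 4. When the pairs of arrays were a random block, BSD2 was the one of the 5 genes to pass (limma, adjusted p = 0.0284), a setting under which 14.0% of all tested probes passed. With the pairs averaged its adjusted p was 0.166, in a limma fit that called 0 of 3208 probes although 773 had p-values under 0.05 before adjustment. Ranked by log2 fold change from the highest, BSD2 stood at place 366 of 3154 and SBPASE at place 531 from the lowest.

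**Figure D2:**
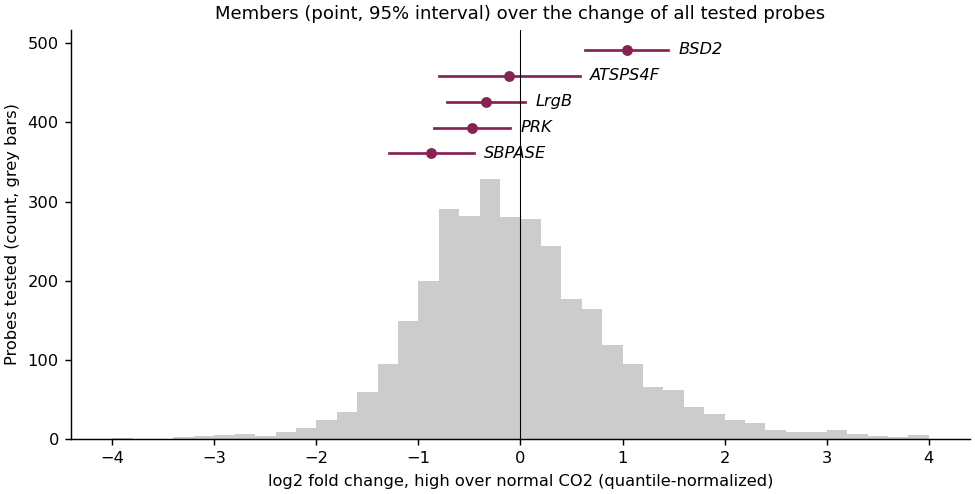
The log2 fold change of the 5 genes at high over normal CO2 (points, with 95% intervals from limma) drawn above the distribution of the log2 fold change of all 3154 tested probes (grey bars, number of probes per 0.2 log2 units; changes beyond 4 log2 units are counted in the end bars). The intervals of SBPASE, PRK and BSD2 leave out 0, those of LrgB and ATSPS4F include it, and the points lie within the range of the other probes.

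LrgB, the glycolate and glycerate transporter, had relative intensities of 0.363, 0.373, 0.356 and 0.395 on normal CO2 replicates 1 to 4. On high CO2 replicates 1 to 4 they were 0.239, 0.319, 0.302 and 0.399. As deposited, high CO2 replicates 1 to 3 lay below every normal array and replicate 4 lay above all of them. After normalization the array that overlapped the normal group was high CO2 replicate 2, at -1.49 on the log2 scale against -1.54 for the lowest normal array, and replicate 4 lay below them all at -1.57. By place among the probes LrgB ranked at percentiles 60.8 to 67.9 on the normal arrays and 52.8 to 62.6 on the high CO2 arrays, which overlap. The SD was 4.59% of the mean at normal and 21.0% at high CO2 as deposited, and 0.15 and 0.23 on the normalized log2 scale.

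The mean of LrgB was 0.371 ± 0.0171 at normal and 0.315 ± 0.0659 at high CO2 (SD, n = 4 each). A log2 change of -0.34 ± 0.17 (SE; limma, adjusted p = 0.151) did not pass. The 95% interval reached from 0.609 to 1.03 times the control, so a fall to below 0.609 times lies outside it, as does a rise of more than 3.14%. These limits take the arrays as independent. With the pairs of arrays as a random block the SE was 0.25, which would widen them. The log2 fold change of LrgB after normalization was -0.19 in replicates 1 and 2 and -0.48 in replicates 3 and 4. As deposited, its mean changed by -24.2% and by -6.57%, so which set showed the larger change depended on the scaling. The log2 fold change was -0.59 (adjusted p = 0.115) after removal of the probe-number trend. On the chromosome LrgB and PRK are near neighbours, with 1 gene between them on chromosome 1 in the order of assembly TAIR10.1.

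ATSPS4F showed no shared direction. It was at 2.85, 2.61, 1.17 and 1.29 on normal CO2 replicates 1 to 4. On high CO2 replicates 1 to 4 it was at 1.91, 1.58, 2.16 and 2.14. The normal arrays split into a high pair and a low pair, and all 4 high CO2 arrays lay between these pairs. The mean was 1.98 ± 0.872 at normal and 1.95 ± 0.268 at high CO2 (SD, n = 4 each), and the fitted log2 change was -0.11 ± 0.30 (SE; limma, adjusted p = 0.807). Its 95% interval of 0.574 to 1.5 times the control was the widest of the 5 genes on the log2 scale.

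Within replicates 1 and 2 the log2 fold change of ATSPS4F was -0.71, and within replicates 3 and 4 it was 0.49. The difference between these of 1.2 ± 0.20 (SE; limma, adjusted p = 0.029, a test of condition by array set) passed, as it did for 10.4% of the 2932 probes in that test. It did not pass with the probe-number trend removed (0.70, adjusted p = 0.146), nor after leaving out a normal array, whichever of the 4, or replicate 3 or 4 at high CO2 (1.15 to 1.28, adjusted p = 0.0709 to 0.0944). Each condition and set holds only 1 pair of arrays, so the p-value of this test measures the spread within pairs. A different response to the condition and a shift of 1 pair for another reason cannot be told apart. The sets were also chosen after seeing the data. For the other 4 genes this test gave adjusted p-values of 0.537 to 0.927 by limma. The gap lay in the controls: replicates 3 and 4 minus replicates 1 and 2 was -1.08 on the log2 scale at normal CO2 and 0.12 at high CO2. A gap of smaller size at normal CO2 was found for 90.3% of the 2932 probes. The sign of the pooled value turned with the processing, to 0.080 as deposited and to 0.092 without normal replicate 1. What sets the pairs of arrays apart was not tested.

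**Figure D3:**
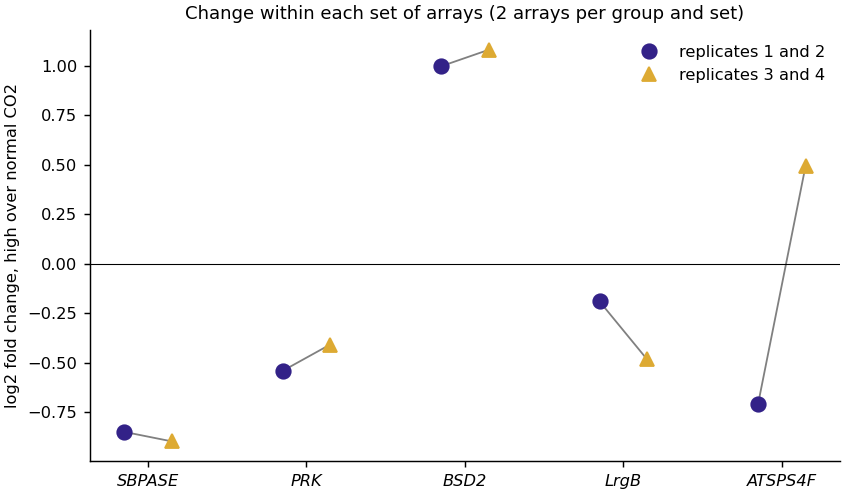
The log2 fold change at high over normal CO2 (vertical axis, normalized values) of each gene within replicates 1 and 2 (circles) and within replicates 3 and 4 (triangles), each from 2 arrays per group, joined by a line. SBPASE, PRK, BSD2 and LrgB keep their sign between the sets, and ATSPS4F goes from -0.71 to 0.49.

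Within the groups the deviations of SBPASE and PRK from their group means correlated at 0.79 over the 8 arrays, given as a description, since both values of a point come from the same array and share its scaling. For the other 9 pairs of genes that value ran from -0.62 to 0.63.

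Among 573 other single-gene probes above 0 on all 8 arrays, the 3 whose normalized values followed each gene most closely are given here by Pearson's r over the 8 arrays, as a description. This r takes in the difference between the groups, so probes close to a gene that changed were picked partly for changing with it. Their direction and p-values are therefore no separate evidence. The closest to SBPASE were AT1G54500 (r = 0.973), AT2G35490 (r = 0.947) and LPA19 (r = 0.943), an assembly factor of photosystem II. All 3 fell at high CO2, LPA19 from 1.11 ± 0.0389 to 0.562 ± 0.028 (SD, n = 4 each), or by -1.05 ± 0.15 on the log2 scale (SE; limma, adjusted p = 0.0023). AT1G54500 was also among the 3 closest to PRK (r = 0.942), with AT3G57630 (r = 0.953) and AT2G40980 (r = 0.942). At high CO2 AT1G54500 changed by -0.79 ± 0.16 on the log2 scale (SE; limma, adjusted p = 0.00831). AT2G40980 changed by -1.07 (limma, adjusted p = 0.00902), while AT3G57630, the closest to PRK, did not pass (-0.24; limma, adjusted p = 0.228).

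The closest to BSD2 were AT2G38570 (r = 0.991), AT3G58830 (r = 0.971) and AT3G04210 (r = 0.969). All of them rose, a direction that the choice by r over both groups favours. AT3G58830 went from 0.34 ± 0.033 to 1.08 ± 0.321 (SD, n = 4 each), or by 1.58 ± 0.17 on the log2 scale (SE; limma, adjusted p = 0.000717). The closest to LrgB were AT1G01080 (r = 0.931), AT3G13120 (r = 0.925) and AT2G48130 (r = 0.914). These 3 fell, with log2 fold changes of -1.12, -0.62 and -1.34, and passed the test, which LrgB did not. The closest to ATSPS4F were AT5G40050 (r = 0.917), AT1G62150 (r = 0.914) and AT4G21170 (r = 0.906), and none of the 3 passed the test between the groups, with adjusted p-values of 0.53 to 0.866 by limma. A correlation above 0.9 with SBPASE was found for 22 probes, with BSD2 for 30, with PRK for 12, with LrgB for 5 and with ATSPS4F for 3. These counts take in the difference between the groups too.

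The rest of these pathways was hardly measured on probes with 1 gene. Of 106 genes in 6 lists drawn up from textbook knowledge, the 5 described above were the only ones tested. They were 2 of 24 genes of the Calvin cycle, with 1 fall and 0 rises, 1 of 11 genes of Rubisco assembly, with 1 rise, 1 of 27 genes of photorespiration and 1 of 16 of sucrose synthesis and export, with no call in either. Of 24 genes of starch metabolism and 4 carbonic anhydrases 0 were tested. A further 7 probes name a listed gene together with other genes, and their values are not assigned to any. The labels name no tissue, and of 15 marker genes for green tissue, root, flower and seed 0 were tested on a single-gene probe, so the makeup of the samples was not tested. In such bulk RNA fewer cells of a type and less RNA per cell cannot be told apart.

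**Figure D4:**
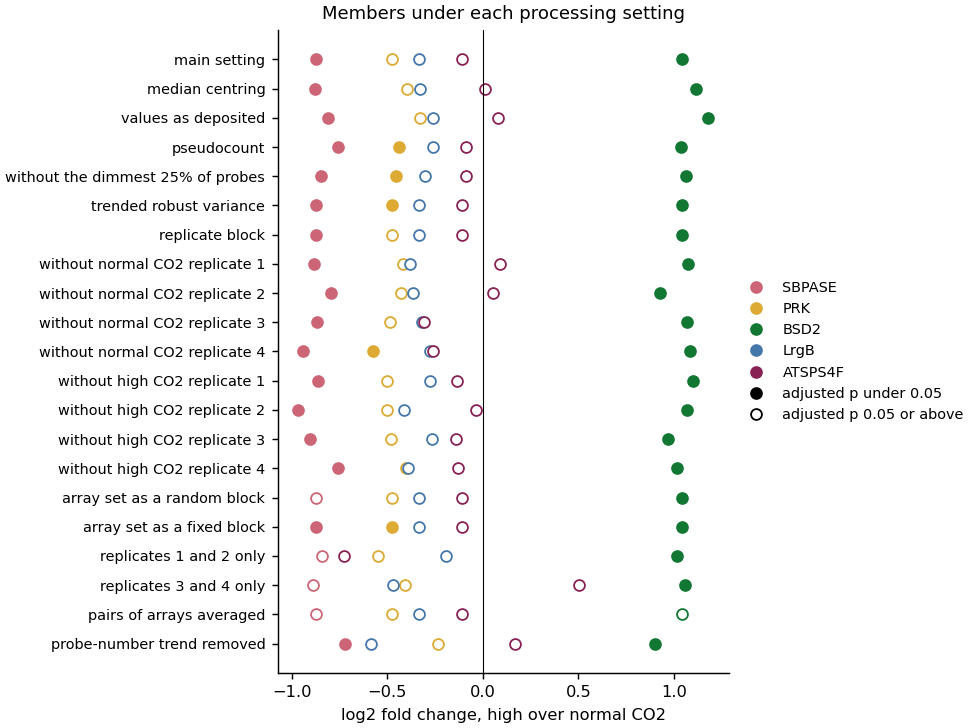
The log2 fold change at high over normal CO2 (horizontal axis) of each gene (colours) under the main setting and 20 alternatives (rows); filled points have an adjusted p under 0.05 by limma and open points do not. BSD2 stays between 0.90 and 1.18 and SBPASE between -0.97 and -0.72, PRK and LrgB stay below 0, and ATSPS4F lies on both sides of 0.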

How the data were processed

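The authors deposited 1 relative intensity per probe and array, linear and running from 0 to 100 on every array, for 3439 probes. How the authors corrected the background or normalized these intensities, and on which type of array, is not given in the sources used here. Array medians were 0.212 to 0.28, and 133 to 219 probes per array were at 0. Zeros were set to missing, log2 was taken, arrays were quantile-normalized, and the 3154 probes with at least 3 values per group were tested. Testing used limma 3.58.1 under R 4.3.3 (eBayes after lmFit, two-sided), with Benjamini-Hochberg adjustment over all tested probes and a threshold of 0.05. The procedure was checked on simulated arrays with independent noise, so that check does not cover noise shared by pairs of arrays. Of the 692 single-gene probes 690 matched the TAIR10.1 gene table. The members and lists were chosen with earlier results of these data known. Genes named are the members, listed genes with a single-gene probe, and the 3 probes most correlated with each member. The labels do not say whether the 4 arrays of a group hold RNA of different plants, so p-values measure the spread between arrays, which may be technical, and the number of arrays limits the precision. Alternatives changed the normalization, the handling of 0 (pseudocount 0.0549), the filter on dim probes, the variance model, blocks and the arrays included. Python 3.11.15 and matplotlib 3.10.9 drew the figures.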

Additional observations from a re-analysis of the deposited data

Results flagged for a closer look

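Among 10 groups of 4 arrays (5 genes, 2 conditions), 1 held an array that stood apart from its group; by chance about 0.5 would. It was ATSPS4F at high CO2, where replicate 2 had a normalized log2 value of 0.65 against 0.90 to 0.94 in the others, a gap of 0.884 of the group's range. ATSPS4F also differed in its change between replicates 1 and 2 and replicates 3 and 4, by 1.2 on the log2 scale (limma, adjusted p = 0.029, against the spread within pairs only). That difference kept its sign under 14 alternatives and its call under 7. What lies behind either value was not tested.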

How the results depend on the processing

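The pairs of arrays as a block, in sets or averaged, and the trend along the probe numbers (running median over 101 probes) were chosen after seeing the data. BSD2 kept its direction under all 20 alternatives and its call under 19, missing it with pairs averaged (1.04). SBPASE kept its direction under all 20 and its call under 16; it missed it with the random block (-0.87), in replicates 1 and 2 alone (-0.84, adjusted p = 0.0516), in replicates 3 and 4 alone (-0.89, adjusted p = 0.0581) and with pairs averaged (-0.87). PRK, below 0 throughout, passed with the pseudocount (-0.44), without the dimmest 25% of probes (-0.45), with the trended robust variance (-0.47) and with a fixed block for the sets (-0.47). LrgB passed under 0 of 20. ATSPS4F turned sign with median centring (0.013), as deposited (0.080), in replicates 3 and 4 alone (0.50) and without the probe-number trend (0.17). Leaving out each array gave -0.97 to -0.76 for SBPASE, -0.58 to -0.40 for PRK, 0.93 to 1.1 for BSD2, -0.41 to -0.26 for LrgB and -0.31 to 0.092 for ATSPS4F (above 0 without normal replicate 1 or 2). Over all probes 1029 were called, 442 with the random block, 0 with pairs averaged (773 at an unadjusted p under 0.05) and 730 to 914 without each array; 377 were lower without normal replicate 1, against 577. Of the calls 43.9% were higher after quantile normalization, 56.3% as deposited and 56.9% without the trend. Of the listed genes 2 were called, 1 with the random block, 1 in each set alone and 0 with pairs averaged. The causes were not tested.

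Same-numbered arrays were not taken as pairs, since their deviations correlated at 0.0639, 0.0999, 0.129 and 0.0708, not all over 0.1. On the other hand, 5 of 8 arrays correlated best with the array of their own number in the other group, which leans towards pairing. The replicate block called 845 probes and left SBPASE (-0.87, adjusted p = 0.018 by limma) and BSD2 (1.04, adjusted p = 0.0175 by limma) past the threshold and PRK at an adjusted p of 0.0601.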
